A study of Mus musculus with 20 samples.

Results

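The genes that changed in the same direction when embryonic and when postnatal mouse glial progenitor cells were genetically modified or transformed were measured on 20 of the 20 arrays of the series. Total RNA of brain progenitor cell lines was hybridised to single-colour Affymetrix arrays, 1 sample per array, in 4 groups of 5. These were control embryonic progenitors, embryonic progenitors after transduction (labelled a genetic modification), control postnatal progenitors and postnatal progenitors labelled transformed. The labels name neither the introduced sequence, nor the transforming agent, nor the mouse strain, nor the exact ages, and they do not say whether a line was a single clone. Separate cultures are not stated for the 5 samples of a group, so p-values below measure only how far these samples differ, and that spread may be technical.

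The shared response of a gene was the average of its embryonic response (transduced minus control) and its postnatal response (transformed minus control) on the log2(signal + 16) scale. The offset of 16 understates the change of dim genes. A gene was called at a Benjamini-Hochberg adjusted p under 0.05 over 18193 genes with at least a 2-fold change, and it was counted as changed in the same direction in both ages when each of its responses was called on its own and both had the same sign. The 2 responses share no control sample, although the model pools the spread of all 4 groups. Array precision is limited by the number of arrays, 5 per group. A background level was taken on each array from 27 bacterial control probe sets, and it lay between 107 and 221. The share of probe sets above it ran from 61.3% to 73.2% over the arrays.

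Glial progenitors of the brain divide and can form oligodendrocytes and astrocytes, and their lines serve as models of how glioma begins. Interferons bind surface receptors, Jak kinases then activate Stat and Irf transcription factors, and these bind a short promoter element, the interferon-stimulated response element, in genes of antiviral defence and antigen presentation. The Ink4 and Cip/Kip proteins inhibit the cyclin-dependent kinases that drive the cell cycle, and transcription factors of the Myc family drive growth and division. The cell type label was checked on the progenitor markers. Olig1, Olig2 and Sox2 were above background on all 5 arrays of every group, and the mean signal of Olig2 was 70639 in embryonic controls, 37229 in transduced cells, 69691 in postnatal controls and 47395 in transformed cells. Sox10 was above background on 5 arrays of every group except the transduced group, where it was so on 2 arrays.

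The promoters of interferon genes are shown because this group held the largest share of shared rises among the pathway lists examined. RefSeq promoters (build GRCm38.p6) were found for 14452 of the 18193 genes and for 398 of the 499 genes higher in both ages. In the 250 bases before the start, both strands were searched for the core of the response element, GAAANNGAAA, with overlapping matches allowed. The following windows belong to the 9 interferon genes that were higher in both ages and held a match. They run 5′ to 3′ in the direction of the gene, with up to 40 bases on either side of the matches, and the capitals mark the matches, some of which overlap or lie on the opposite strand.
Bst2 (chr8:71537547-71537642, minus strand): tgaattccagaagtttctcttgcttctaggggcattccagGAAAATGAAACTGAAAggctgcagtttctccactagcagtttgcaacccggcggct
Gbp2 (chr3:142620564-142620653, plus strand): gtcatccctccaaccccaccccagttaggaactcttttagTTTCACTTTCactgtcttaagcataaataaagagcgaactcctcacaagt
Gbp3 (chr3:142559959-142560043, plus strand): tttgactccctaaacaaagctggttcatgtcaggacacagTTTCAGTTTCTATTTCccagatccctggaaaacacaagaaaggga
Ifit1 (chr19:34640745-34640853, plus strand): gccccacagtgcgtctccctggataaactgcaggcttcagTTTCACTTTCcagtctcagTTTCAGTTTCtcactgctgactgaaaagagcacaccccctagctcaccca
Ifit3 (chr19:34583333-34583456, plus strand): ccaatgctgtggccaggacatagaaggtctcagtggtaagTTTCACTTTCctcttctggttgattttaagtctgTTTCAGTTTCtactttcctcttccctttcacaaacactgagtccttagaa
Igtp (chr11:58199482-58199555, plus strand): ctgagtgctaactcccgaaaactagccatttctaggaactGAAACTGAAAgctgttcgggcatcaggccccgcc
Irgm1 (chr11:48871421-48871490, minus strand): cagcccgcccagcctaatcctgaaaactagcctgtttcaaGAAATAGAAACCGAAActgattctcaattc
Lgals9 (chr11:78984930-78985019, minus strand): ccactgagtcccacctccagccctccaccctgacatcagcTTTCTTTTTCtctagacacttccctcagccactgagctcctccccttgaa
Rsad2 (chr12:26456523-26456612, minus strand): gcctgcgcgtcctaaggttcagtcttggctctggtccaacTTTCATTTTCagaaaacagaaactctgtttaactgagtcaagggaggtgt
The match closest to the start began 24 bases before it in Irgm1 and 34 bases before it in Igtp, both GTPases that act against pathogens inside cells, and 124 bases before it in Bst2, which tethers budding virus. A match is a description of the letters and not a binding site. It was present in 9 of the 20 interferon-list genes that were higher in both ages and had a promoter (45.0%) and in 2 of 15 other members of that list (13.3%). Among all genes with a promoter it was present in 3.13%, among genes higher in both ages in 8.79%, and among genes lower in both ages in 2.79%. With the interferon list left out, 26 of 378 genes higher in both ages (6.88%) held it. The E-box CACGTG, a motif bound by Myc with Max, was present in 8.73% of all genes with a promoter, in 7.54% of those higher in both ages and in 8.94% of those lower in both ages.

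The average of both responses was called higher for 1408 genes (7.74% of all genes tested) and lower for 751 (4.13%). Of these 2159 genes, 499 were called higher in both ages (2.74% of all genes) and 237 lower in both ages (1.3%). Among the remaining average calls, only the embryonic response was called for 625 genes and only the postnatal response for 710 genes. Both were called in opposite directions for 25 genes, and neither was called for 63 genes. A response that was not called could still add to the average. Bbc3, for example, changed by 1.60 in embryonic and 0.70 in postnatal cells, with an average of 1.15. Every gene changed in the same direction in both ages was also called on the average.

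The embryonic response called 1567 genes higher (8.61%) and 1044 lower (5.74%), and the postnatal response called 1739 higher (9.56%) and 1165 lower (6.4%). Of the genes higher in transduced embryonic cells, 31.8% were also higher in transformed postnatal cells and 5.49% were lower there. Of the genes lower in transduced cells, 22.7% were also lower in transformed cells and 14.8% were higher. Read from the postnatal side, the shared genes made up 28.7% of the rises and 20.3% of the falls. Across all 18193 genes Pearson's r between the responses was 0.24 and Spearman's rho 0.17, and 55.0% of genes had the same sign; these are descriptions across genes, which are not independent.

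**Figure D1:**
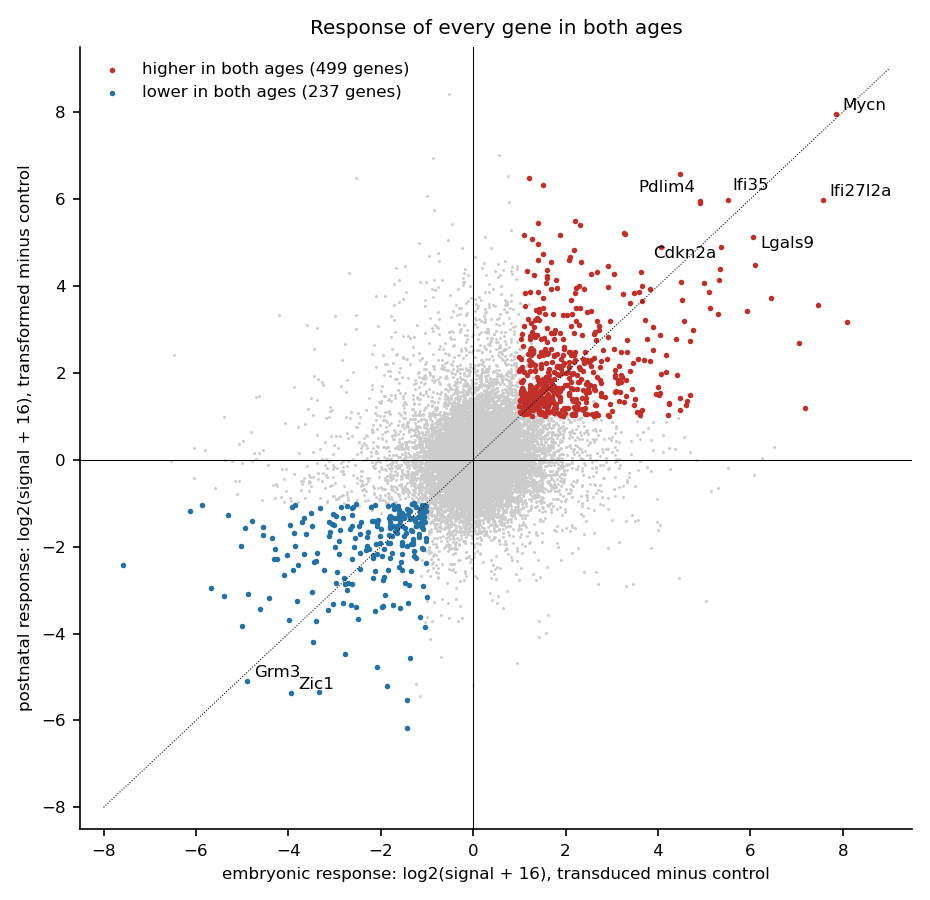
Each point is a gene, with its embryonic response on the horizontal axis and its postnatal response on the vertical axis, both as differences of log2(signal + 16) between group means of 5 arrays. The 499 genes higher in both ages are red, the 237 lower in both ages are blue, and the dotted line marks equal responses; Mycn lies almost on it at 7.85 and 7.96.

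The arrays of the control and modified groups did not overlap in either age for 403 of the 499 higher genes and for 199 of the 237 lower genes. Of all genes, 11.5% had no overlap and the same direction in both ages; nothing is read from this contrast, since the genes were chosen on the same arrays. The change was at least 4-fold in both ages for 118 higher and 55 lower genes. It was at least 16-fold in both ages for 14 higher genes and 1 lower gene on the fitted scale. Signals above background on at least 4 of 5 arrays of every group, written below as measured, were found for 292 higher and 129 lower genes. For 36 of the higher genes both control groups lay below background on all arrays, and for 13 of the lower genes both modified groups did; their fitted values depend on the offset, and the text gives such genes a minimum fold. The median shared change was 1.98 for the higher genes and -1.97 for the lower genes, beside 0.04 for all genes; these medians follow from how the genes were chosen.

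Mycn, a Myc family transcription factor (chromosome 12), had the largest shared rise of all genes. Its signals in embryonic controls were 551, 756, 366, 156 and 817, and in transduced cells 93443, 108760, 110210, 121943 and 116234. In postnatal controls they were 520, 560, 314, 373 and 564, and in transformed cells 122763, 119285, 119549, 110307 and 114248. All 10 modified arrays lay far above all 10 control arrays, of which 9 were above their own background. The embryonic response was 7.85 ± 0.28 (log2, SE; adjusted p = 2.1e-15) and the postnatal response 7.96 ± 0.28 (adjusted p = 2.78e-15). The responses did not differ detectably (adjusted p = 0.875 for the difference). This probe set did not speak for the whole gene: the other 2 Mycn probe sets changed by 0.95 and 1.26 in embryonic cells and by 0.58 and 0.62 in postnatal cells. The brighter of these had mean signals of 1327 and 2570 in embryonic and 1728 and 2321 in postnatal control and modified cells. The reason for this difference between probe sets was not tested.

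Among 12 genes of the Myc family and the Max network, 1, Mycn, was called in the same direction in both ages (4.05% of all genes). Myc changed by -0.02 in embryonic and by -0.77 in postnatal cells, Max, the shared partner, by -0.05 and -0.16, and neither passed the threshold. Mycl fell in transformed cells (-2.49), with -0.86 in transduced cells. Of 18 ribosome biogenesis genes and other textbook Myc targets, 0 were called in the same direction in both ages by limma, 4 were lower at an unadjusted p under 0.05 in each age (8.48% of all genes were), and the median of their average responses was -0.31.

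Cdkn2a, which encodes the cell cycle inhibitor p16 and the Arf protein (chromosome 4), rose in both ages. Its signals were 323, 296, 256, 177 and 383 in embryonic controls and 14994, 11852, 11176, 10870 and 12489 in transduced cells. They were 399, 808, 1104, 422 and 352 in postnatal controls and 15886, 17429, 19481, 15609 and 17527 in transformed cells. The groups did not overlap in either age, and 4 of the 5 embryonic control arrays were above background. The responses were 5.37 ± 0.24 (adjusted p = 6.62e-14) and 4.90 ± 0.24 (adjusted p = 3.84e-13), with no detectable difference between them (adjusted p = 0.31).

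Of 10 cell cycle inhibitors and pocket proteins, 3 rose (2.74% of all genes) and 1 fell (1.3%) in both ages. Cdkn2b, the neighbouring Ink4 inhibitor p15, rose by 1.68 in transduced and by 4.56 in transformed cells, and these responses differed (adjusted p = 1.35e-08). Cdkn1a, the inhibitor p21, rose by 2.25 and 1.96. Its postnatal controls read 12683, 26071, 16904, 2689 and 2959; without arrays 4 and 5 its postnatal change was 0.90, below 2-fold, and 2 inhibitors rose in both ages. Cdkn1c, the imprinted inhibitor p57, fell by 1.44 in transduced cells; in transformed cells its mean signal was 66.9, below background on all 5 arrays, against 6320 in postnatal controls, at least 39.4-fold lower. The other Ink4 genes, Cdkn2c and Cdkn2d, changed by less than 2-fold. Of 19 DNA replication and mitosis genes, Rrm2, a ribonucleotide reductase subunit, was the only gene lower in both ages (-1.11 and -2.02), while 15 of the 19 were lower in transformed cells (6.4% of all genes) and 1 in transduced cells (5.74%). Postnatal control arrays 4 and 5 stood apart for such genes: Kif11, a mitotic motor, read 12351, 12111, 12096, 1792 and 1605 in these controls. Without the arrays, all 19 were lower in transformed cells and Rrm2 was still the gene lower in both ages; its shared call was lost with some single embryonic arrays left out.

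**Figure D2:**
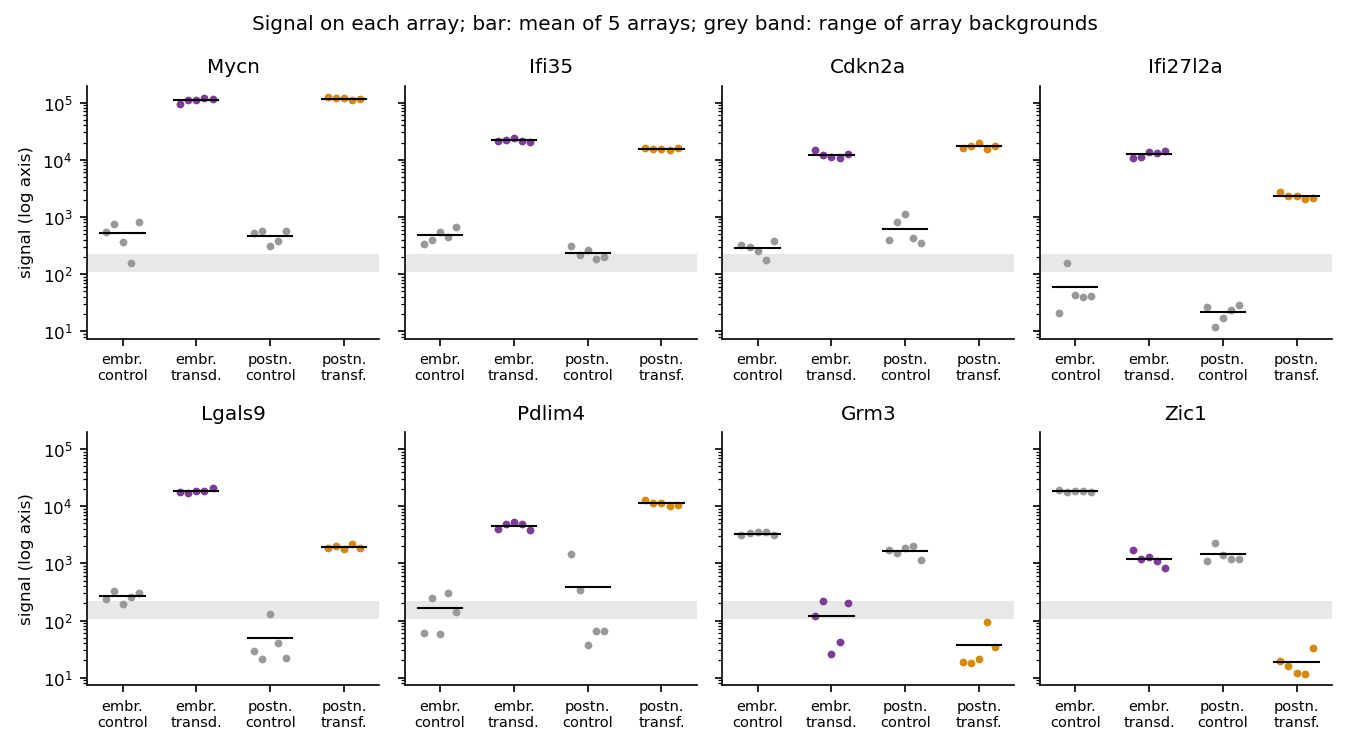
Signals on a log axis of 8 genes that marked the shared response in earlier results of these data, 5 arrays per group, with the group mean as a bar and the range of the array backgrounds (107 to 221) as a grey band. Control and modified arrays do not overlap in either age for any of the 8 genes; Pdlim4 reached 1458 on 1 postnatal control array, below the lowest transformed array at 9959.

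Genes of the interferon pathway rose in large part. Of 47 analysed genes, 28 rose in both ages (59.6%, against 2.74% of all genes), and 35 did at an unadjusted p under 0.05 in each age (9.47% of all genes). By neither limma threshold did any fall in both. The median of their average responses was 2.79, or 2.78 with genes below background at their bound, beside 0.04 for all genes. Of 30 effectors, 23 rose in both ages, as did 3 of 5 sensors of viral RNA and 2 of 4 transcription factors, while of 3 kinases and of 5 ligands and receptors none was called in both, groups too small to compare.

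Among the ligands and receptors, Ifnb1, the interferon beta gene, changed by 0.96 in transduced and 0.32 in transformed cells and passed the threshold in neither. The receptor chains Ifnar2 and Ifngr2 rose in transformed cells (1.03 and 1.24) and read 0.82 and 0.84 in transduced cells, below 2-fold. Jak1 changed by 0.27 and -0.01 and Tyk2 by 0.65 and 0.42. Of the transcription factors, Irf9, the DNA-binding partner of the Stat factors, rose by 4.05 in transduced and 1.53 in transformed cells. Irf7, which amplifies interferon production, had mean signals of 240 and 6061 in embryonic and 171 and 475 in postnatal control and modified cells, and in each control group 3 of 5 arrays were above background. Stat2 rose in transduced cells (1.05) and read 0.60 in transformed cells, a difference that was not called (adjusted p = 0.144).

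Among the sensors, Ddx58, which encodes the RNA sensor RIG-I, rose by 2.65 and 2.75. Ifih1, the sensor MDA5, had mean signals of 535 and 11789 in embryonic cells and of 183 (3 of 5 arrays above background) and 643 in postnatal cells. Tlr3, an endosomal receptor of double-stranded RNA, had 928 and 9086 in embryonic cells and 245 (3 of 5 arrays above background) and 6051 in postnatal cells. Dhx58 and Zbp1 were called in neither age.

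Ifi35, an interferon-induced protein (chromosome 11), rose by similar amounts in both ages. Embryonic controls read 334, 392, 543, 440 and 655 and transduced cells 21082, 22131, 24142, 21104 and 20706. Postnatal controls read 315, 218, 263, 183 and 199 and transformed cells 15788, 15464, 15648, 14583 and 15790. All 10 control arrays were above background, and none came near a modified array of its age. The responses were 5.52 ± 0.15 (adjusted p = 1.3e-17) and 5.97 ± 0.15 (adjusted p = 7.98e-18). The difference between them was not called (adjusted p = 0.0959). The other 2 Ifi35 probe sets rose too, with average responses of 5.80, where controls were below background, and 3.19.

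Ifi27l2a, a mitochondrial interferon-induced protein (chromosome 12), lay below background on all 10 control arrays. Embryonic controls read 20.8, 156, 43.3, 39.8 and 40.6, and postnatal controls 26.9, 12, 16.7, 23.7 and 28.7. Transduced cells read 10666, 11301, 13398, 12881 and 13944, and transformed cells 2705, 2312, 2307, 2049 and 2179. The gene was therefore at least 74.1-fold higher in transduced and at least 15.5-fold higher in transformed cells. Its relative Ifi27 rose by 5.33 ± 0.20 and 4.14 ± 0.20, and probe sets of such close relatives may share signal.

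Lgals9, which encodes the immune-regulatory lectin galectin-9 (chromosome 11), read 240, 326, 198, 253 and 303 in embryonic controls and 18088, 16954, 18464, 18331 and 20431 in transduced cells. In postnatal controls it read 29.8, 20.8, 131, 39.6 and 22.2, above background on 1 array, and in transformed cells 1860, 1987, 1767, 2180 and 1859. It rose by 6.06 ± 0.26 in transduced cells, and in transformed cells the groups were apart although the fitted change depends on the offset. Its control level was lower in postnatal than in embryonic cells, and so was its modified level.

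Rtp4, a receptor transporter induced by interferon, rose by 5.92 ± 0.31 and 3.43 ± 0.31, with 4 of 5 postnatal control arrays above background. Lgals3bp, a secreted lectin-binding protein, rose by 4.49 ± 0.15 and 4.09 ± 0.15. Igtp rose by 3.65 ± 0.23 in each age, and Iigp1 and Irgm1, other immunity-related GTPases, by 2.23 and 3.50 and by 3.76 and 2.77. Rsad2, the antiviral protein viperin, rose by 4.18 and 2.40, and Eif2ak2, the kinase PKR, by 2.74 and 2.13. Oasl2, an oligoadenylate synthetase-like protein, was below background on all 10 control arrays and was at least 121-fold higher in transduced but at least 3.69-fold higher in transformed cells. Usp18, an inhibitor of interferon signalling, had mean signals of 130 and 16068 in embryonic and 126 and 753 in postnatal control and modified cells, with 3 of 5 control arrays above background in each age.

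The rises were of unequal size. The difference between responses was called for 17 of the 28 genes, and in 15 of the 17 the embryonic response was larger. Among the 13 of the 28 that were measured in every group, it was called for 7, with 6 larger in embryonic cells. The measured exception was Iigp1. Mx2, Oas1a, Parp12 and Trim21 rose in transduced cells (3.97, 3.10, 2.94 and 2.13), and their postnatal changes, each below 2-fold, were -0.91, 0.77, 0.98 and 0.65. The difference was called for each of these genes, with adjusted p up to 0.0144 for Oas1a.

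**Figure D3:**
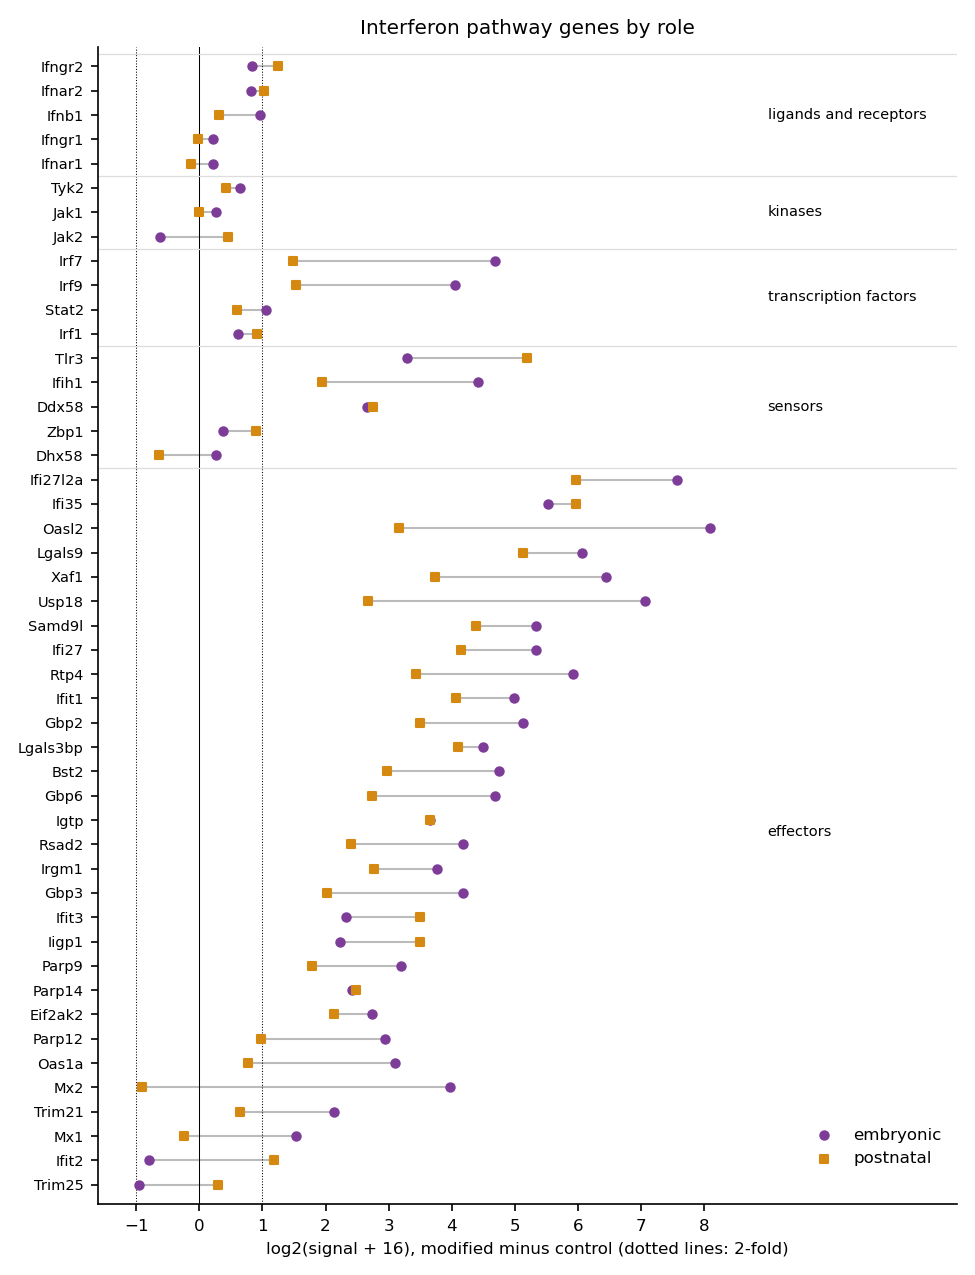
Differences of log2(signal + 16) between modified and control cells for 47 interferon pathway genes, ordered by role; circles are embryonic and squares postnatal, and the dotted lines mark 2-fold. The 23 effectors, 3 sensors and 2 factors that rose in both ages lie to the right of 1 with both symbols, while Jak1, Ifnar1 and Ifngr1 lie near 0; values of genes below background in controls are fitted and not bounds.

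Genes of antigen presentation through MHC class I also rose. Of 17 analysed genes, 10 rose in both ages (2.74% of all genes). At an unadjusted p under 0.05 in each age 13 were higher in both (9.47% of all genes) and 2 lower (8.48%). The median average response was 1.57 (1.58 with bounds). B2m, the invariant light chain, rose by 1.69 and 1.76, and its other probe set had an average response of 1.73. The heavy chains H2-D1 and H2-K1 rose by 2.07 and 2.13 and by 1.24 and 2.85, and these near-identical chains may share probe signal. Tap1 and Tap2, which carry peptides into the endoplasmic reticulum, rose by 4.22 and 1.03 and by 1.70 and 1.45, and Tapbp, tapasin, by 2.59 and 2.03. Without postnatal control arrays 4 and 5 the postnatal change of Tap1 was 0.70, below 2-fold, and 9 genes of the list rose in both ages. Nlrc5, a transactivator of class I genes, had mean signals of 183 and 872 in embryonic and 148 (3 of 5 arrays above background) and 517 in postnatal cells. The general chaperones Calr, Canx and Pdia3 changed by less than 2-fold in both ages.

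Of 17 NF-kB genes and chemokines, 4 rose in both ages (2.74% of all genes), and at an unadjusted p under 0.05 in each age 7 were higher in both (9.47%). Cxcl12 rose by 2.21 and 1.17, with 4 of 5 arrays above background in each control group; its postnatal call was lost without any 1 of several arrays, and its change was 0.79 without postnatal control array 2. Cxcl10, an interferon-induced chemokine, had mean signals of 374 and 1118 in embryonic and 91.6 (1 of 5 arrays above background) and 1401 in postnatal cells. Ccl5 was below background on all 10 control arrays and read 1242 in transformed cells, at least 8.35-fold higher there. In transduced cells its mean signal was 187, above background on 3 of 5 arrays. These arrays (29.7 to 328) overlapped the embryonic controls (13.5 to 36.0). With the controls taken at their background its embryonic change was -0.23, so no minimum rise can be given for embryonic cells. Nfkbia, the feedback inhibitor of NF-kB, changed by 0.50 and 0.64, below 2-fold. Without postnatal control arrays 4 and 5, Tnfaip3 was also called higher in both ages, and 5 genes of the list were.

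Genes of the ATF4 and unfolded protein stress response rose in part. Of 15, 5 rose in both ages (2.74% of all genes), and at an unadjusted p under 0.05 in each age 9 were higher in both (9.47%). Chac1, which degrades glutathione, rose by 2.30 and 3.11, Ddit3, the stress factor CHOP, by 1.37 and 3.44, and Cebpb, a related bZIP factor, by 2.22 and 3.20. Trib3, a pseudokinase induced by stress, had mean signals of 211 (3 of 5 arrays above background) and 3154 in embryonic control and modified cells, and of 826 and 23131 in the postnatal ones. Atf4 itself rose in transformed cells (1.79) and changed by 0.16 in transduced cells. Hspa5, the chaperone BiP, and Xbp1 were called in neither age.

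ERK feedback genes and mesenchymal markers also held shared rises. Of 15 ERK feedback and target genes, 4 rose in both ages (2.74% of all genes). These were Dusp4, a nuclear phosphatase of ERK (2.93 ± 0.13 and 4.47 ± 0.13), Dusp6, a cytoplasmic ERK phosphatase (1.04 and 2.31), the inhibitor Spry4 (1.76 and 2.41) and Fosl1, an AP-1 factor. Fosl1 was below background on all 10 control arrays, at least 1.83-fold higher in transduced and at least 3.81-fold higher in transformed cells. Of 19 mesenchymal glioma markers, 6 rose in both ages (2.74% of all genes) and 1 fell (1.3%). Anxa2, a membrane-binding annexin, rose by 2.56 and 4.28, Cd44, the hyaluronan receptor, by 2.07 and 4.60, Fn1, fibronectin, by 2.19 and 2.26 (4 of 5 postnatal control arrays above background), and Bhlhe40, a repressor, by 3.26 and 1.32. Cav1, caveolin-1, fell by 1.43 in transduced cells, and its mean signal fell from 5154 to 110 in transformed cells, where 1 of 5 arrays was above background.

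Pdlim4, an actin-associated PDZ-LIM protein (chromosome 11), read 60.7, 246, 59.2, 307 and 143 in embryonic controls and 4052, 4805, 5389, 4881 and 3816 in transduced cells. In postnatal controls it read 1458, 337, 37.6, 65.8 and 66.4, and in transformed cells 12653, 11375, 11450, 9959 and 10551. Only 2 of 5 arrays of each control group were above background, and the postnatal controls were widely spread (393 ± 608, SD, n = 5). The control and modified arrays did not overlap in either age.

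The remaining largest measured rises were in genes on none of these lists. Klf4, a zinc finger factor of stem cell programmes, rose by 5.31 ± 0.25 and 3.36 ± 0.25, and its second probe set by 3.93 and 2.71. Tmtc4, a mannosyltransferase of the endoplasmic reticulum, rose by 3.66 ± 0.15 and 3.99 ± 0.15, with no detectable difference (adjusted p = 0.256). Cyb5r1, a cytochrome b5 reductase, rose by 1.87 ± 0.12 and 5.17 ± 0.12, from 1806 ± 87 to 6657 ± 627 and from 1165 ± 317 to 41289 ± 988 (SD, n = 5 each). P2rx3, an ATP-gated channel, rose from 259 ± 54.6 to 622 ± 155 in embryonic cells, where the groups were apart, and from 325 ± 133 (4 of 5 arrays above background) to 27949 ± 845 in postnatal cells. The other P2rx3 probe sets changed by 1.24 and 1.16 in embryonic cells, the latter not called, and by 7.71 and 5.15 in postnatal cells. Each was above background on 1 of 5 transduced arrays. For P2rx3 and Cyb5r1 the shared direction thus rested on responses of very unequal size.

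Tcim, a regulator of transcription and immunity, rose by 4.47 ± 0.19 in transduced cells, and in postnatal cells its mean signal rose from 118 (2 of 5 arrays above background) to 11955. Ndrg1, a stress- and hypoxia-induced gene, read 204 (3 of 5 arrays above background) and 30457 in embryonic and 156 (3 of 5) and 1678 in postnatal control and modified cells. Its other 4 probe sets rose in both ages as well. Of 17 hypoxia and glycolysis genes, 3 rose in both ages (2.74% of all genes): Ndrg1, Vegfa, the vascular growth factor (3.07 and 1.91), and Ero1a, an oxidoreductase (4.03 and 1.48). Another 4, Pdk1, Pfkl, Ankrd37 and Egln3, rose in transduced and fell in transformed cells (0.473% of all genes). Without postnatal control arrays 4 and 5, 5 genes of the list rose in both ages, with P4ha1 and Slc2a1 added (postnatal changes 1.25 and 1.02).

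**Figure D4:**
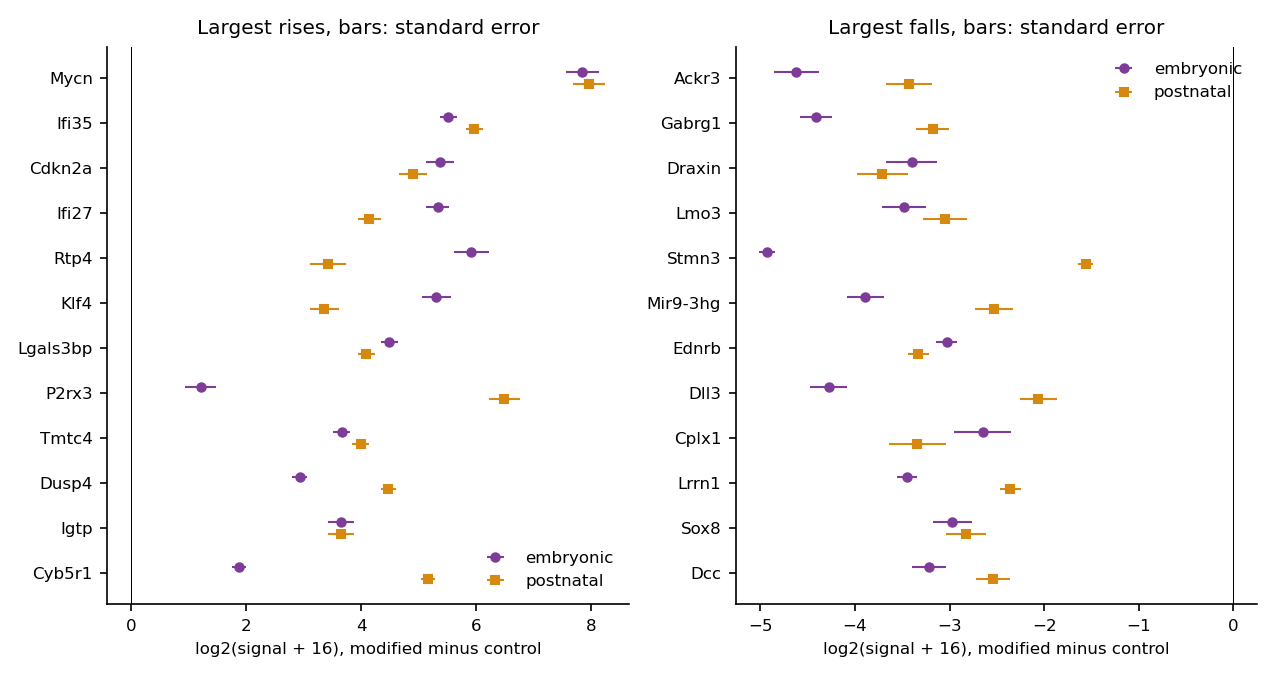
Responses of the 12 measured genes with the largest shared rises (left) and the 12 with the largest shared falls (right), as differences of log2(signal + 16) with standard errors; circles are embryonic and squares postnatal. Mycn, Igtp, Tmtc4, Draxin and Sox8 have nearly equal responses, while P2rx3 (1.21 and 6.49), Cyb5r1 and Stmn3 (-4.93 and -1.56) do not.

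Among the falls, Grm3, a metabotropic glutamate receptor (chromosome 5), fell to or below background in both ages. Embryonic controls read 3079, 3369, 3492, 3517 and 3106 and transduced cells 119, 221, 26.1, 42.7 and 201, above background on 1 array. Postnatal controls read 1690, 1497, 1825, 2033 and 1153 and transformed cells 18.6, 18.4, 20.9, 92.5 and 34.2, below background on all 5 arrays. It was at least 10.9-fold lower in transformed cells.

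Zic1, a zinc finger factor of neural patterning (chromosome 9), read 18859, 17874, 18204, 18489 and 17731 in embryonic controls and 1701, 1172, 1270, 1089 and 816 in transduced cells. In postnatal controls it read 1095, 2265, 1407, 1182 and 1214, and in transformed cells 19.8, 16.3, 12.3, 11.8 and 32.5, below background on all 5 arrays. It fell by 3.94 ± 0.20 in transduced cells and was at least 9.37-fold lower in transformed cells. The postnatal controls overlapped the range of the transduced embryonic cells, and the other Zic1 probe set fell likewise (mean signals 7303 and 404, then 625 and 23.5).

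The largest measured falls included several receptors. Ackr3, an atypical chemokine receptor, fell from 9651 ± 657 to 383 ± 68.0 and from 4920 ± 2192 to 408 ± 86.6 (SD, n = 5 each), by 4.62 ± 0.24 and 3.43 ± 0.24. On postnatal control arrays 4 and 5 it read 2776 and 2427, against 6009 to 7378 on the others, and all were above the transformed arrays. Gabrg1, a GABA-A receptor subunit, fell by 4.41 ± 0.17 and 3.18 ± 0.17. Ednrb, the endothelin B receptor, fell by 3.03 ± 0.11 and 3.33 ± 0.11, and its other 2 probe sets had average responses of -3.07 and -3.14.

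Draxin, a secreted axon guidance protein, fell by 3.40 ± 0.27 and 3.71 ± 0.27 (4 of 5 transduced arrays above background), and Dcc, a guidance receptor, by 3.22 ± 0.18 and 2.54 ± 0.18. Stmn3, a regulator of microtubules, fell by 4.93 ± 0.08 in transduced but by 1.56 ± 0.08 in transformed cells. Cplx1, complexin 1 of the synapse, fell by 2.65 ± 0.30 and 3.34 ± 0.30. Its other probe sets were unlike: 1 changed by -3.80 and -3.87, with 2 of 5 arrays above background in each modified group. The other, above background on all 5 arrays of every group, changed by -0.79 and -0.93, below 2-fold. Sox8, a SoxE factor of the glial lineage, fell by 2.97 ± 0.21 and 2.83 ± 0.21 with no detectable difference (adjusted p = 0.78). Lmo3, a LIM-only cofactor, Mir9-3hg, a host transcript of miR-9, and Lrrn1, a leucine-rich repeat protein, fell by 3.48 and 3.05, by 3.89 and 2.53, and by 3.45 and 2.36.

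Rps4l, a ribosomal protein gene, Vit, Dmrtb1 and Gpx7 fell to or near background in at least 1 age. Dmrtb1 read 1781 and 163 in embryonic cells, where 2 of 5 transduced arrays were above background, and fell by 5.35 in postnatal cells, with 4 of 5 transformed arrays above background. Rps4l read 10114 ± 349 in embryonic controls and was below background on all 5 transduced arrays, at least 54.9-fold lower, whereas in transformed cells it fell by 2.43 from 2306 ± 472. Vit, an extracellular matrix protein, was below background on all 10 modified arrays, at least 12.1-fold and at least 7.88-fold lower. Gpx7, a peroxidase, read 4562 in embryonic controls and 101 in transduced cells, where 1 of 5 arrays was above background, and fell by 2.94 in transformed cells.

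Of 22 glutamate receptor genes, 4 fell in both ages (1.3% of all genes), and at an unadjusted p under 0.05 in each age 8 were lower in both (8.48%). Besides Grm3 these were Grm5 (mean signals 7068 and 114, with 2 of 5 transduced arrays above background, then 3947 and 1723), the kainate receptor Grik1 and the NMDA receptor subunit Grin3a (1262 and 101, with 1 of 5 above background, then 5149 and 1449). Grik1 read 283 in embryonic controls (4 of 5 arrays above background) and was below background on all transduced arrays, at least 1.43-fold lower; in postnatal cells it read 803 and 117, with 2 of 5 transformed arrays above background. In transduced cells 13 of the 22 fell (5.74% of all genes) and in transformed cells 4 (6.4%); 2 were called in opposite directions, and the responses differed for 11. Among those 13 were the AMPA receptor subunits Gria2 and Gria3 (-3.94 and -4.64), whose postnatal changes were -0.96 and 0.15.

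Of 17 oligodendrocyte progenitor genes, 3 fell in both ages (1.3% of all genes), and at an unadjusted p under 0.05 in each age 12 were lower in both (8.48%). Gpr17, a receptor of committed progenitors, had mean signals of 1434 and 47.5 in embryonic cells, with 1 of 5 transduced arrays above background, and of 35805 and 2943 in postnatal cells. Nkx2-2, a factor of oligodendrocyte differentiation, had 7800 and 239 (3 of 5 above background), then 19780 and 4314. Tnr, tenascin-R, was below background on all 5 transduced arrays, at least 8.57-fold lower, and fell by 1.74 in transformed cells. With postnatal control arrays 4 and 5 left out, the postnatal change of Tnr was -0.86 and no longer called, and 2 genes of the list were lower in both ages. Sox10 and Pdgfra, defining markers of the lineage, fell in transduced cells, by 3.70 for Pdgfra, and read 0.15 and -0.56 in transformed cells; both differences between the ages were called.

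Of 16 neuronal genes, Dcx, doublecortin, Snap25, a synaptic fusion protein, and Rbfox3, the antigen NeuN, were lower in both ages (1.3% of all genes). As many, Gap43, a growth cone protein (-4.63 and 1.47), Tubb3, a neuronal tubulin (-3.26 and 1.73, with 1 of 5 transduced arrays above background), and Syt1, a synaptic calcium sensor (-1.61 and 2.02), fell in transduced and rose in transformed cells. Of all genes, 0.852% fell in transduced and rose in transformed cells. In transduced cells 12 of the 16 neuronal genes fell (5.74% of all genes). The summed signal of the list lay between 87851 and 99941 in postnatal controls and between 109394 and 115455 in transformed cells, and between 95567 and 100640 and between 28803 and 30644 in embryonic control and transduced cells. Rbfox3 fell by 1.09 and 2.91, with 4 of 5 transformed arrays above background. Dcx read 1648 and 134 in embryonic cells, with 2 of 5 transduced arrays above background, and fell by 1.51 in transformed cells, a call lost without postnatal control arrays 4 and 5 (adjusted p = 0.102 by limma), which left 2 neuronal genes lower in both ages. Snap25 read 982 and 145 in embryonic cells, with 2 of 5 transduced arrays above background, and fell by 1.60 in transformed cells. Of 17 astrocyte and neural stem genes 1 fell in both ages (1.3% of all genes). In transformed cells 8 fell (6.4%) and 3 rose (9.56%), Aldoc, S100b and Nes (1.14, 2.20 and 1.42), and Prom1 was called in opposite directions. Without postnatal control arrays 4 and 5 the postnatal change of Nes was 0.59, below 2-fold, and 2 genes of the list rose in transformed cells. Aldh1l1, a folate enzyme of astrocytes, fell by 3.38 in transformed cells and read 1015 and 260 in embryonic cells, with 3 of 5 transduced arrays above background. Of 13 oligodendrocyte and myelin genes 1 fell in both ages (1.3% of all genes), the myelin enzyme Cnp, by 1.11 and 1.03. Its postnatal controls read 44147, 34288, 38881, 88543 and 99797, and without arrays 4 and 5 its postnatal change was -0.53, below 2-fold, so that none of the list was then lower in both ages. Of 16 imprinted genes 2 fell in both ages (1.3% of all genes), Cdkn1c and Ndn, necdin (by 1.38 and 2.89). Without postnatal control arrays 4 and 5, Mest was also called lower in both ages, with a postnatal change of -1.04. Of 27 cadherins and synaptic adhesion genes 2 fell in both ages (1.3% of all genes), Nlgn3 (by 2.46 and 2.52) and Pcdh9.

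Notch and patterning genes moved in both directions. The ligands Dll1 and Dll3 fell by 1.80 and 1.57 and by 4.28 ± 0.20 and 2.06 ± 0.20, and Lfng, which modifies Notch sugars, by 1.03 and 1.80. Rbpj, the DNA-binding partner of Notch, rose by 1.09 and 1.05 and the target Hes1 by 1.07 and 1.43, whereas the target Hes5 changed by -0.33 and -3.71 and fell in transformed cells. Of 23 patterning factors, 3 midbrain and hindbrain genes rose in both ages (2.74% of all genes), and Zic1 alone fell in both (1.3%). The 3 were Irx2 (1.75 and 2.39, with 4 of 5 postnatal control arrays above background), Irx3 and En2. The shared calls of Lfng, Rbpj, Hes1 and Irx3 were each lost with at least 1 single array left out. En2 read 96.1 (1 of 5 arrays above background) and 715 in embryonic and 173 (3 of 5) and 1639 in postnatal control and modified cells. Lef1, a Wnt effector, was the only shared rise among 15 Wnt targets and inhibitors (2.74% of all genes). Its mean signals were 149 (3 of 5 arrays above background) and 898 in embryonic control and modified cells. In the postnatal ones they were 108 (1 of 5) and 910. On its other probe set the embryonic change of 1.06 was not called. Bmpr1b, a receptor, was the only shared fall among 16 BMP pathway genes (1.3% of all genes). It changed by -1.37 in transduced cells and was at least 9.34-fold lower in transformed cells. Of 16 polycomb, DNA methylation and oncofetal genes and of 8 complement and acute phase genes, 0 changed in the same direction in both ages by limma. At an unadjusted p under 0.05 in each age, 1 of the 16 was higher (9.47% of all genes) and 1 lower (8.48%), and 0 of the 8.

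**Figure D5:**
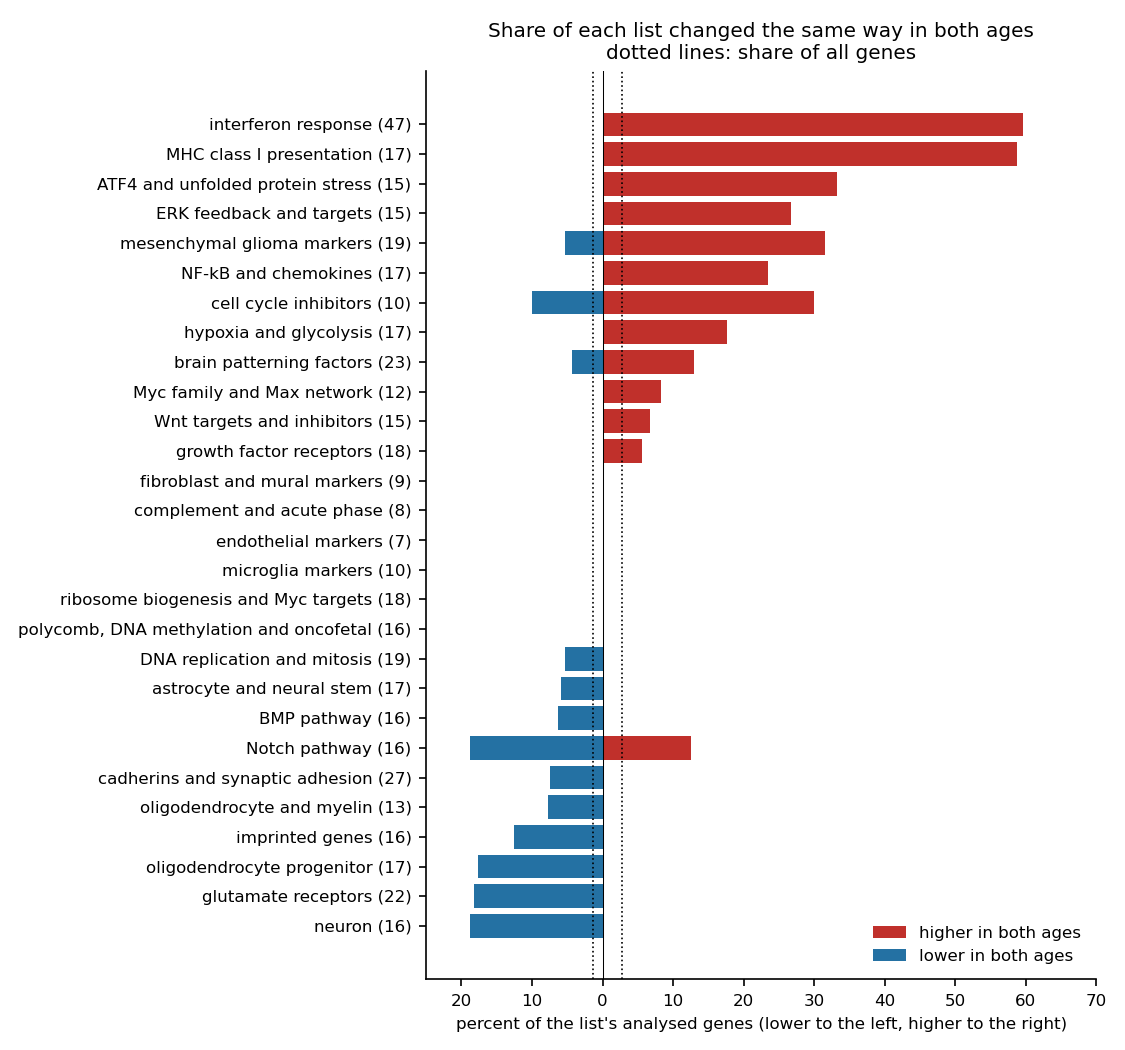
Percent of the analysed genes of each list called higher (red, right) or lower (blue, left) in both ages, with the number of genes in parentheses; the dotted lines mark the shares of all genes, 2.74% higher and 1.3% lower. The interferon list (59.6%) and the MHC class I list (58.8%) stand at the top, and the neuronal, glutamate receptor and oligodendrocyte progenitor lists hold shared falls without shared rises.

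Shared direction did not mean equal size. The difference between the responses was called for 157 of the 499 higher genes and for 68 of the 237 lower genes, against 19.1% of all genes. The postnatal response was the larger in 81 of the 157 higher genes and in 19 of the 68 lower genes. The levels from which the genes started differed as well: postnatal and embryonic controls differed for 31.5% of the higher and 35.4% of the lower genes, against 10.6% of all genes. After modification the transformed and transduced cells differed for 44.7% and 49.4%, against 25.5% of all genes. Nothing is read from these contrasts with all genes, since the genes were chosen for large changes on the same arrays. Mycn, Tmtc4, Igtp, Draxin, Cplx1 and Sox8 differed neither between the controls nor between the modified groups.

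A further 241 genes were called in both ages in opposite directions, 86 higher in transduced and lower in transformed cells and 155 the reverse. Egr2 and Egr3, immediate early factors, rose by 3.30 and 4.45 in transduced and fell by 2.90 and 2.72 in transformed cells, and Ankrd37, a hypoxia target, rose by 5.03 and read 988 and 105 in postnatal control and transformed cells, where 1 of 5 arrays was above background. Otx1, a forebrain factor, was below background in embryonic controls and read 82.1 in transformed cells (1 of 5 arrays above background), against 373 in transduced cells and 710 in postnatal controls. Grb10, an imprinted adaptor of growth factor receptors, fell by 3.60 ± 0.11 in transduced and rose by 3.11 ± 0.11 in transformed cells, and Cpne8, a copine, fell by 2.98 and rose by 3.30. Cthrc1, a secreted collagen-associated protein, and Cdh19, a cadherin, were below background in transduced cells, at least 3.62-fold and at least 1.66-fold lower, and rose by 3.33 and 3.03 in transformed cells.

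Of the 736 genes changed in the same direction, 430 had other probe sets, 739 in all. Of these, 593 had the same sign as the gene in both ages and 296 were called in both. For 213 of the 430 genes at least 1 other probe set was called in both ages. By chromosome, the share of genes higher in both ages ran from 1.09% on chromosome 14 to 4.44% on chromosome 17, where the MHC lies, leaving out chromosome Y and the mitochondrial genome.

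Markers of other cells were set beside these results. Of 10 microglia markers, 7 endothelial markers and 9 fibroblast and mural markers, 0 changed in the same direction in both ages by limma. Of all genes, 2.74% were higher and 1.3% lower in both, so 0 in lists this short decides little. At an unadjusted p under 0.05 in each age 1 endothelial marker was higher in both (9.47% of all genes). By the same measure 1 fibroblast or mural marker was lower (8.48%). In transduced cells Itgam of microglia and Flt1 and Kdr of endothelium were called higher (1.42, 1.62 and 1.58, 8.61% of all genes). In transformed cells 1 endothelial marker was (9.56%). Without the postnatal control arrays that stood apart for mitosis genes, Kdr was called higher in both ages (postnatal change 1.38). Aif1, C1qa and Itgam of microglia and Pecam1 of endothelium were below background on all 20 arrays. The summed microglia signal lay between 1352 and 1645 in embryonic controls, 1607 and 3380 in transduced cells, 1082 and 1580 in postnatal controls and 2320 and 2705 in transformed cells. P2ry12 was the only microglia marker that rose in transformed cells (166 to 1364), and of the others there Csf1r was above background on all 5 arrays and the rest on at most 2. The summed endothelial signal lay between 761 and 1205, 1177 and 2201, 398 and 1001, and 829 and 1145 in the same order. The summed fibroblast and mural signal lay between 11442 and 26823, 3899 and 5078, 1269 and 2540, and 1341 and 1773. It did not overlap between embryonic control and transduced cells. Acta2 (mean signals 12604 and 2858) and Tagln (2708 and 89.8, below background on all 5 transduced arrays) fell in transduced cells. The part of these markers of other cells in the results was not tested. Fewer cells of a type and less RNA per cell cannot be told apart in these samples. The log2 ratio of the 3′ to the 5′ Actb control probe sets, a measure of RNA quality, lay between 0.30 and 0.35 in embryonic controls, 0.39 and 0.45 in transduced cells, 0.20 and 0.29 in postnatal controls and 0.23 and 0.32 in transformed cells. The same ratio for Gapdh lay between -0.43 and -0.32, -0.35 and -0.26, -0.51 and -0.41, and -0.59 and -0.48 in the same order, with overlap between the groups of each age. The part of RNA quality in the results was not tested.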

How the data were processed

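The deposited values were linear intensities, 1 signal per probe set and array, in the authors' value table. How the authors corrected background and scaled them is not stated in these sources. Their mean after trimming 2% at each end was between 2500.01 and 2500.02 on every array, and they were used as deposited. Of 45037 probe sets left without 64 controls, 34945 had 1 gene symbol, 932 several and 9160 none listed. Each of 18193 genes was represented by its single-symbol probe set of highest mean. A model of 4 group means over 20 arrays was fitted to log2(signal + 16) with limma 3.58.1 (lmFit, eBayes with intensity trend; R 4.3.3), with two-sided p-values adjusted by Benjamini and Hochberg's method over every gene. The fit was tested on simulated data. Tables and figures used Python 3.11.15. Background was the 95th percentile of 27 bacterial control probe sets per array. Where a group lay below background on all 5 arrays, only a minimum fold is given, which sets the brighter group's mean log2 signal against the dim group's, each dim array taken at its background or its signal, whichever was higher.

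The members and the 30 gene lists were chosen with earlier results of these data known. The genes named were 8 given markers; of the genes changed in the same direction without overlap, the 12 largest measured and the 6 largest other changes each way; from each list up to 4 with the smallest adjusted p and members that state a role; and 4 opposite genes each way. Of 512 listed genes, 30 were not analysed here. Same-numbered samples did not deviate together (correlations from -0.053 to 0.032), so the numbers were not taken to pair samples. Of 190 array pairs, 0 were identical. Alternatives covered the offset, scaling, probe set choice, a brightness filter, the trend, a replicate block, separate fits, the fold threshold and left-out arrays. The counts of single genes and lists without postnatal control arrays 4 and 5 were added after the data had been seen.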

Additional observations from a re-analysis of the deposited data

Results flagged for a closer look

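Among 44 genes examined, 12 of 153 gene and group pairs held 1 array apart from the other 4 (a gap over 0.71 of the group's range, Dixon's limit for 5 samples), and chance gives about 1 in 20. Arrays that read high were Dll3 on embryonic transduced array 2 (1224, others 724 to 812), Egr2 on embryonic control array 3 (2628, others 1400 to 1626), Grb10 on embryonic control array 2 (33333, others 26107 to 27216), Rtp4 on embryonic transduced array 5 (32984, others 27355 to 28829) and Stmn3 on postnatal control array 3 (47240, others 38325 to 40364). Arrays that read low in embryonic cells were Klf4 on control array 1 (270.0, others 331 to 348) and Ndrg1 on transduced array 5 (22709, others 30643 to 33438). In postnatal controls Gabrg1 read low on array 5 (4999, others 6120 to 6606) and P2rx3 on array 4 (103, others 343 to 459). In transformed cells Dmrtb1 (33.3, others 162 to 279) and Ifi35 (14583, others 15464 to 15790) read low on array 4, and Lgals3bp on array 3 (3601, others 3937 to 4051). For the 10 of these genes other than Egr2 and Grb10, the average response kept its call with any 1 array left out. Those genes were given markers or had been chosen for large average changes.

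For 28 genes the postnatal and embryonic responses differed by the model's test of the difference, given here as postnatal minus embryonic log2 change; where a group lay below background the value is fitted and depends on the offset. Among genes higher in both ages the difference was positive for P2rx3 (5.29), Cyb5r1 (3.3), Tcim (2.11) and Dusp4 (1.54). It was negative, with the larger rise in embryonic cells, for Oasl2 (-4.93), Ndrg1 (-3.89), Rtp4 (-2.49), Klf4 (-1.95), Ifi27l2a (-1.6) and Ifi27 (-1.19). Among genes lower in both ages the fall was larger in embryonic cells for Rps4l (5.15), Stmn3 (3.37), Gpx7 (2.74), Dll3 (2.22), Mir9-3hg (1.36), Gabrg1 (1.23), Ackr3 (1.19) and Lrrn1 (1.09), and larger in postnatal cells for Dmrtb1 (-2.03) and Zic1 (-1.43). The opposite genes differed by construction: Cthrc1 (7.53), Grb10 (6.71), Cdh19 (6.4), Cpne8 (6.27), Ankrd37 (-8.26), Egr3 (-7.17), Otx1 (-6.31) and Egr2 (-6.2).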

How the results depend on the processing

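Of the settings that kept all arrays, only the fold threshold moved a count by more than 1.5 times. Without it the number of genes changed by the average of both responses was 8078, 1449 were higher and 1328 lower in both ages, and the responses of 1199 of these differed. With a threshold of 4-fold the counts were 511, 118, 55 and 19. Leaving out each of the 20 arrays in turn gave 2139 to 2198 average calls, 475 to 513 genes higher in both ages, 224 to 243 lower in both, and 206 to 235 with differing responses. Without postnatal control arrays 4 and 5, 725 genes changed in the same direction, of which 649 were among the 736. Of 114 named or listed genes that changed in the same direction, 5 lost a call without these arrays (Cdkn1a, Cnp, Dcx, Tap1 and Tnr). Other listed genes gained a shared call there: Kdr, P4ha1, Slc2a1 and Tnfaip3 were higher and Mest lower in both ages. With at least 1 single array left out 10 of the 114 lost a call: Cnp, Cxcl12, Hes1, Irx3, Lfng, Rbpj, Relb, Rrm2, Tap1 and Tapbpl. With offsets of 1 and 64 there were 722 and 648, with quantile normalization 691 (60.3% of them higher, against 67.8%), with the mean of all probe sets 644, and with separate fits, which give no average or difference, 706. With a replicate block, whose numbers do not pair the samples, 496 genes were higher and 236 lower in both ages, and with the block within age 492 and 233. The average responses of 36 genes kept their sign and their call in all 1152 combinations of gene and setting tried. These were the given markers and the genes with the largest average changes on the same arrays, so little else could result. Only the average was followed for them, not the call in each age. With quantile normalization the median average response of all genes was -0.04, against 0.04. Dim genes limit the precision, since 292 of the 499 higher and 129 of the 237 lower genes were measured in every group.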
